A study of Mus musculus with 20 samples.

Results

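The carboxylesterases described here are 10 mouse liver genes, Ces1c, Ces1d, Ces1e, Ces1f, Ces1g, Ces2a, Ces2c, Ces2e, Ces3a and Ces3b, taken by gene symbol from 37681 genes in each count table. All 10 were among the 15578 detected genes, meaning genes for which 5 or more samples of some table reached 5 reads. A further 11 rows with a carboxylesterase symbol were not members and are described separately. Liver RNA from 10 male C57/B6J mice aged 12 weeks was taken 4 hours after an intraperitoneal dose of IL-1β at 20 µg/kg (5 mice, ILB) or saline (5 mice, called untreated, UNT). Treated mice were ILB_9577, ILB_9578, ILB_9579, ILB_9582 and ILB_9583. The untreated mice were UNT_9574, UNT_9575, UNT_9576, UNT_9580 and UNT_9584. The same RNA from each mouse was sequenced on the Illumina and Ion Torrent platforms, and each set of reads was aligned with GSNAP, with STAR, or with STAR and then Bowtie2 (STAR + Bowtie2), giving 6 tables of 10 libraries. IL-1β is an inflammatory cytokine, and no genotype or other agent differed between the groups. Both groups are whole liver, and in such samples fewer cells of a type and less RNA per cell cannot be told apart.

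Carboxylesterases are enzymes of the endoplasmic reticulum, and in a few cases of plasma, that split ester, amide and thioester bonds with a serine in the active site. In liver they clear ester drugs, prodrugs and pesticides, and several of them hydrolyze the triglyceride of lipid droplets, which feeds the assembly of very low density lipoprotein (VLDL). In rodents the genes have multiplied into tandem clusters, so that the Ces1, Ces2 and Ces3 subfamilies each hold close copies whose short reads can be hard to assign.

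All of the members lie on chromosome 8 of the NCBIM37 build, which is the mm9 build the authors aligned to. The 5 Ces1 members occupied the minus strand from 95622914 (end of Ces1c) to 95861207 (start of Ces1g), and the Ces2 and Ces3 members the plus strand from 107257903 (start of Ces2a) to 107617829 (end of Ces3b). Each is a multi-exon protein coding gene, with 12 to 14 exons in its longest transcript. Coding sequences within the Ces1 subfamily were 72.5 to 81.5% identical between members, those within Ces2 82.4 to 83.7%, and those of Ces3a and Ces3b 95.3%. Between subfamilies identity was 54.2 to 59.2%.

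The closest copy of a member was in some cases a gene outside the list. Ces2c was 97.3% identical in coding sequence to Ces2d-ps, its neighbor at 107391388 to 107397967, and 69% of the 50-base and 57.9% of the 100-base stretches of the Ces2c transcript were also present elsewhere in the family. For Ces3a and Ces3b the shares at 100 bases were 9.08 and 7.68%, and for Ces1c, whose nearest copy is Ces1b at 88% identity, 1.39%. The other 6 members shared no stretch of 100 bases with a family member. The part of the coding sequence around the active site serine is given as an example of how alike the copies are. It is printed for 72 bases, with capitals at the bases that differ within each set. The Ces2 stretches lie in exon 5 on the plus strand, at chr8:107374639-107374710 (Ces2c), chr8:107394238-107394309 (Ces2d-ps) and chr8:107358813-107358884 (Ces2b), and the Ces3 stretches are joined across exons 5 and 6, at chr8:107575457-107575638 (Ces3a) and chr8:107610547-107610728 (Ces3b), all in NCBIM37.
Ces2c: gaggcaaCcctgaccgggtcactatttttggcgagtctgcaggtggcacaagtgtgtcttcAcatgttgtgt
Ces2d-ps: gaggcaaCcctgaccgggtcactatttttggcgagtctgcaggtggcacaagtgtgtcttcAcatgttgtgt
Ces2b: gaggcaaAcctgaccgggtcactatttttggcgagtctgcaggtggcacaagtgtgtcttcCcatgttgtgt
Ces3a: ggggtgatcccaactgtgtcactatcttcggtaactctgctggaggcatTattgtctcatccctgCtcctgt
Ces3b: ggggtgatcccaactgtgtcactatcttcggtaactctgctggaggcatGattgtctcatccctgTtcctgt

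Over these stretches Ces2c and Ces2d-ps differed at 0 bases, Ces2c and Ces2b at 2, and Ces3a and Ces3b at 2. The Illumina reads of the study were longer than this stretch, so it does not show whether a whole read can be placed. Of the 100-base stretches of the Ces2c transcript, 57.9% were present in other transcripts, mainly that of Ces2d-ps. The counts of this pair are therefore uncertain.

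Promoter sequence from RefSeq (GRCm38.p6, 250 bases before to 50 after the start) was at hand for 7 of the 10 members, and Ces1d, Ces1f and Ces3a were without an entry. Both strands were searched for 4 short motifs, and the same search was run on all 32851 promoters of the same length. The NF-κB-type motif GGGANTTTC was present in 1 of the 7 member promoters, that of Ces2c, and in 1.11% of all promoters. The C/EBP-type motif TTGCNNAA was present in Ces1c, Ces2a and Ces2e (3 of 7, against 10.8% of all). The TATA box letters TATAAA were present in Ces3b and, only on the strand opposite to the gene, in Ces1g (2 of 7, against 13.6%). The nuclear receptor half-site AGGTCA was present in Ces2a (1 of 7, against 16.3%). No matches of different motifs overlapped. A match is a run of letters and not a measured binding site. The promoters of Ces2c, which rose, and Ces3b, whose fall had the smallest adjusted p among the members, are printed with these matches in capitals (chr8:104846818-104847117 and chr8:105083505-105083804, plus strand, GRCm38.p6).
Ces2c promoter: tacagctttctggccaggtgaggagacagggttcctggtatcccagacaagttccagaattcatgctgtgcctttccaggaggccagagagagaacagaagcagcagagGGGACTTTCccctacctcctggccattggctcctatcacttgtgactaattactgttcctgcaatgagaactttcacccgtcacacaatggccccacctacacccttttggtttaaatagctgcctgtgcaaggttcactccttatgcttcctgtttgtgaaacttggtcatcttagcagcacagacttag
Ces3b promoter: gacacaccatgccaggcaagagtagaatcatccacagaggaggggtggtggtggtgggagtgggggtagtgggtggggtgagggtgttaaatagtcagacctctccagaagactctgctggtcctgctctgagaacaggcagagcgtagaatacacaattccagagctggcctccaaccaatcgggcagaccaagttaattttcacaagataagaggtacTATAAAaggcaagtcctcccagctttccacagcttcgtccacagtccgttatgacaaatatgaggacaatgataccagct

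Levels of different genes were compared as TMM-normalized CPM per kilobase of exon, where CPM is the count scaled to a common library size and TMM is the trimmed-mean scaling of edgeR. In untreated Illumina libraries aligned with GSNAP, the highest level was that of Ces1c, the carboxylesterase that rodents secrete into plasma, at 1332 ± 155 (SD, n = 5). Ces3a, a liver esterase, followed at 1091 ± 102, and Ces1d, a triacylglycerol hydrolase of the endoplasmic reticulum, at 430.1 ± 85.2. Ces2a, Ces3b and Ces1f were at 272 ± 45.1, 236 ± 52.9 and 185 ± 31.3, and Ces1e, Ces1g and Ces2e at 99.3 ± 21.7, 91.7 ± 14.8 and 77.4 ± 16.0. Ces2c was lowest, at 17.2 ± 6.14. The ranges of neighbors in this order overlapped for Ces1c and Ces3a, Ces2a and Ces3b, Ces3b and Ces1f, Ces1e and Ces1g, and Ces1g and Ces2e, and were apart for the other 4 neighboring pairs. Within a mouse, Ces1c was above Ces3a in 5 of 5 untreated mice and Ces2a was above Ces3b in 5 of 5. The order depends in part on the gene length used. With the longest transcript as length, untreated Ces1f (316 ± 53.3) stood above Ces3b (252 ± 56.5) and just below Ces2a (326 ± 54.2).

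**Figure D1:**
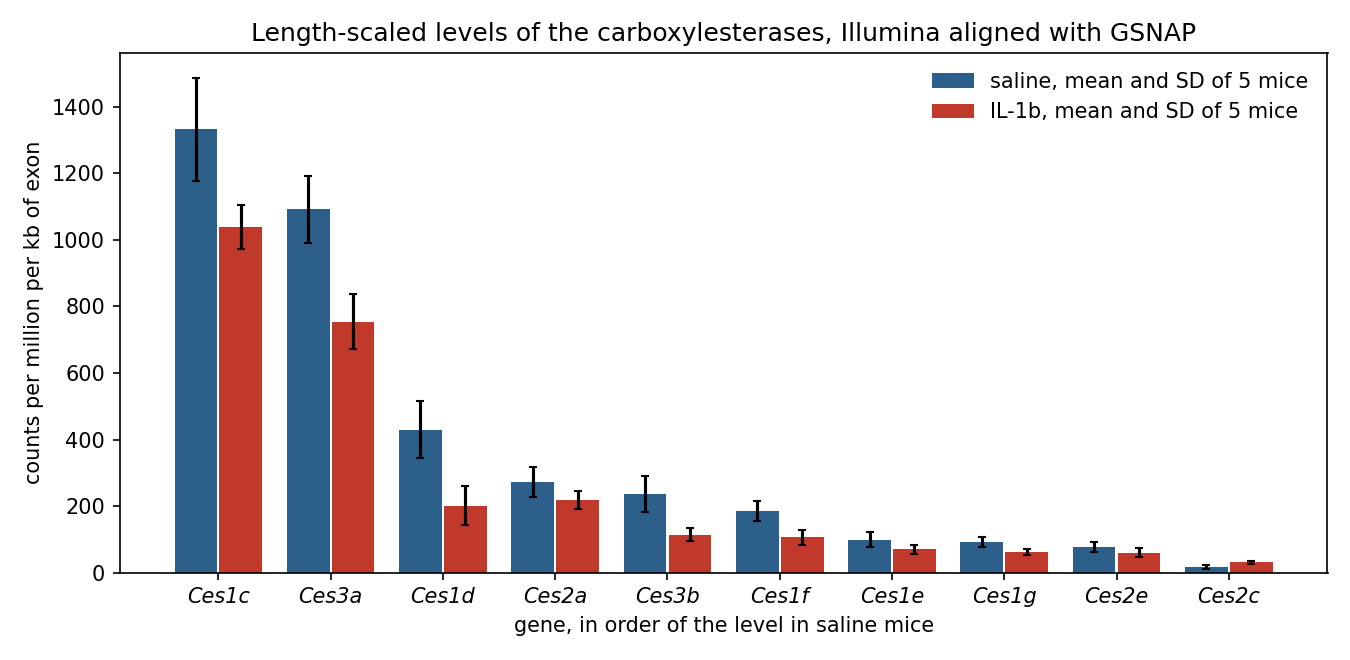
Bars show TMM-normalized CPM per kilobase of exon for the 10 carboxylesterases in the Illumina libraries aligned with GSNAP, as the mean and SD of 5 untreated (blue) and 5 treated (red) mice, in the order of the untreated level. Ces1c and Ces3a stand well above the rest, and Ces2c is the lowest gene in both groups and the only one whose red bar is the taller.

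Summed over the 10 genes, the level per kilobase in Illumina GSNAP data was 3832 ± 356 in untreated and 2654 ± 258 in treated mice, with ranges of 3432 to 4276 and 2310.3 to 2979.6. The treated and untreated mice did not overlap. Of this sum, Ces1c made up 34.7 ± 1.36% in untreated and 39.3 ± 2.76% in treated mice, Ces3a 28.6 ± 2.85% and 28.4 ± 1.62%, Ces1d 11.2 ± 2.03% and 7.50 ± 1.61%, and Ces3b 6.17 ± 1.24% and 4.27 ± 0.610%. In treated mice Ces2a (219 ± 27.3) stood above Ces1d (201 ± 58.8) in 4 of 5 libraries, the reverse of the order in untreated mice, where Ces1d was above Ces2a in 5 of 5.

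Most of the family fell with IL-1β. In Illumina data aligned with GSNAP, 7 of the 10 members were lower in treated mice (Ces1c, Ces1d, Ces1e, Ces1f, Ces1g, Ces3a and Ces3b), 1 was higher (Ces2c), and Ces2a and Ces2e did not pass an adjusted p of 0.05. The test was edgeR's quasi-likelihood test with Benjamini-Hochberg adjustment over the 15578 genes, and it called 23.9% of all genes lower and 23.7% higher in this table. The members' median log2 fold change was -0.52, against 0.00 over all tested genes. The 5 treated and 5 untreated mice did not overlap for 7 of the 10 members, against 35.2% of all genes.

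The count of lower members was 7 in the Illumina STAR table, 8 in Illumina STAR + Bowtie2, 8 in Ion Torrent GSNAP, 6 in Ion Torrent STAR and 7 in Ion Torrent STAR + Bowtie2, where 22.9, 24.4, 23.9, 21.8 and 24.0% of all genes were called lower. Ces2c was the 1 higher member in each of these tables, where 22.7, 22.9, 22.5, 20.3 and 22.8% of all genes were called higher. The tables come from the same 10 mice and are not independent of each other. Ces1d, Ces1e, Ces1f, Ces1g, Ces3a and Ces3b were lower in all 6 tables, Ces1c in 5, and Ces2a and Ces2e in 1 each.

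**Figure D2:**
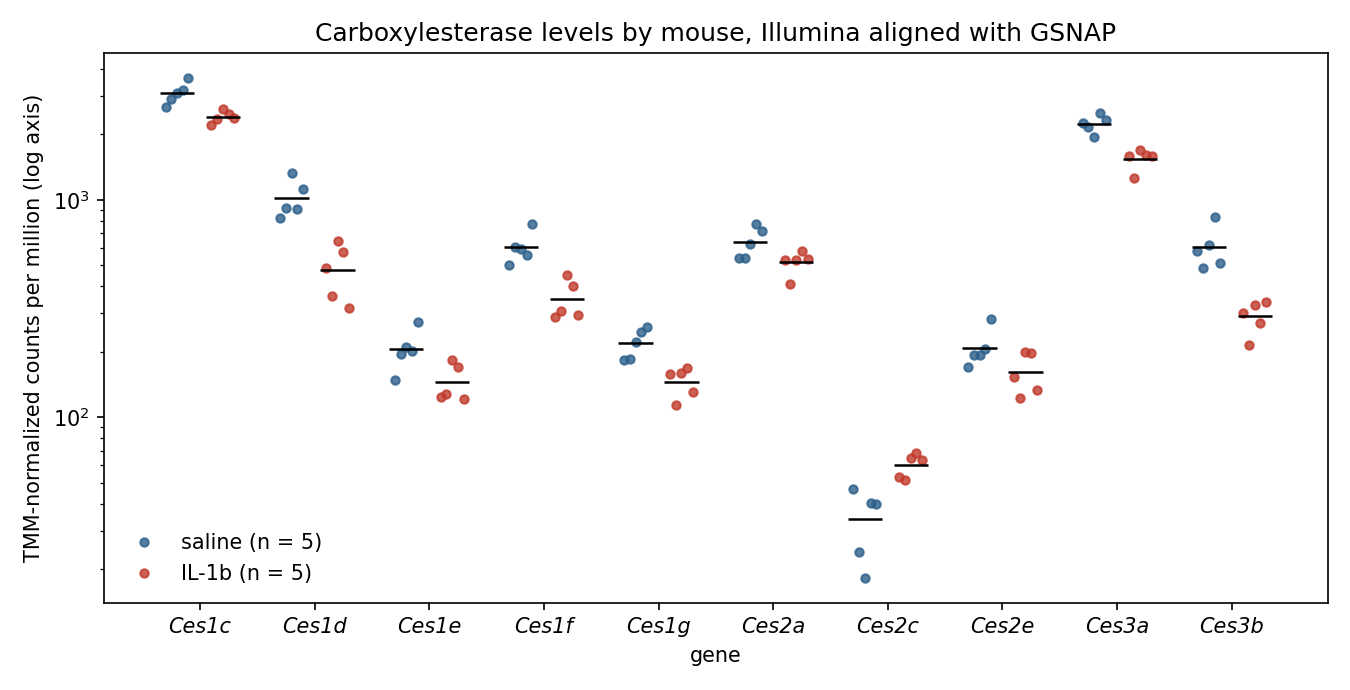
Each point is the TMM-normalized CPM (log axis) of a carboxylesterase in 1 mouse in the Illumina libraries aligned with GSNAP, with untreated mice in blue, treated mice in red and the group mean as a black line. The red points lie below all blue points for Ces1c, Ces1d, Ces1f, Ces1g, Ces3a and Ces3b, above them for Ces2c, and overlap them for Ces1e, Ces2a and Ces2e.

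Values for single mice are given below as TMM-normalized CPM from the Illumina GSNAP table, in the mouse order stated at the start. Ces1d, which releases stored triglyceride for VLDL, was 483, 360.0, 646, 577 and 318 in treated and 824, 915, 1321, 911 and 1123 in untreated mice. Every treated mouse was below every untreated mouse, and this held in all 6 tables. Its log2 fold change was -1.10 (SE 0.19, 95% interval -1.50 to -0.69, adjusted p = 0.00027), which is 46.8% of the untreated level. Ces1d was also the member that varied most among treated mice, with a coefficient of variation of 29.2%. Across the 8160 genes that averaged 100 or more reads, the median was 11.4%. Mice ILB_9578 and ILB_9583 were the lowest of the treated group for this gene, and UNT_9576 the highest of the untreated.

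Ces1f, another hydrolase of stored triglyceride, was 289.6, 307, 452, 402 and 296 in treated mice and 503, 609, 592, 559 and 777 in untreated mice. The groups were apart here and in the other 5 tables. The fold change was -0.80 (SE 0.15, 95% interval -1.12 to -0.48, adjusted p = 0.00047), or 57.4% of the untreated level. Ces1g, a Ces1 hydrolase linked to control of liver triglyceride, was 158, 114, 159, 168 and 130.0 in treated and 182, 185, 221, 246 and 261 in untreated mice. These groups also did not overlap, although the gap between 168 and 182 is small, and they overlapped in Ion Torrent GSNAP data. Its log2 fold change was -0.59 (SE 0.13, 95% interval -0.87 to -0.30, adjusted p = 0.0021).

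Ces1c, the plasma carboxylesterase, changed by less although it is the most abundant member. Its values were 2210.2, 2354, 2623, 2479.9 and 2385 in treated and 2656, 2904, 3107, 3178 and 3628 in untreated mice. The treated mice were tightly grouped, with a coefficient of variation of 6.35%, the lowest of the 10 members, and the highest of them came close to untreated mouse UNT_9574. The log2 fold change was -0.36 (SE 0.11, 95% interval -0.59 to -0.13, adjusted p = 0.013). Over the 6 tables the log2 fold change ran from -0.37 to -0.25, and in Ion Torrent STAR data it did not pass, with an adjusted p of 0.064. The call was lost in 1 or 2 tables without treated mouse ILB_9577, ILB_9578 or ILB_9579 or untreated mouse UNT_9576, UNT_9580 or UNT_9584, with adjusted p between 0.051 and 0.093. Without untreated mouse UNT_9574 a call was gained in 1 table (adjusted p = 0.042).

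Ces1e, also known as egasyn, holds β-glucuronidase in the endoplasmic reticulum. It was 123, 128, 183, 169.6 and 122 in treated mice and 148, 195, 210.3, 203 and 273 in untreated mice. The groups overlapped in this and in every other table, with untreated mouse UNT_9574 lying among the treated mice. The log2 fold change was -0.50 (SE 0.16, 95% interval -0.84 to -0.16, adjusted p = 0.017) and ranged from -0.51 to -0.48 over the 6 tables. Without treated mouse ILB_9577 or ILB_9583, or untreated mouse UNT_9584, the adjusted p was 0.051 to 0.056 in 2 tables each, just past the threshold. A rank test on counts without TMM scaling lost the call in 4 tables (adjusted p 0.071 to 0.077).

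Ces3a and Ces3b, the near-identical liver esterases of the Ces3 subfamily, both fell. Ces3b was 299.98, 215, 329.8, 272 and 339 in treated mice and 582, 487, 617, 829.5 and 513 in untreated mice. The groups were well apart, and this held in all 6 tables. Its log2 fold change was -1.06 (SE 0.16, 95% interval -1.39 to -0.72, adjusted p = 6.8e-05), or 48.1% of the untreated level, the smallest adjusted p among the members in this table. Ces3a was 1587, 1256, 1691, 1602 and 1592 in treated and 2249.9, 2163, 1939, 2507 and 2324 in untreated mice. The groups were again apart in all 6 tables, with mouse ILB_9578 lowest of the treated group for both genes. The log2 fold change of Ces3a was -0.53 (SE 0.11, 95% interval -0.77 to -0.30, adjusted p = 0.0012), or 69.1% of the untreated level.

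Ces2c, which hydrolyzes glycerides and acylcarnitines, was the only member to rise. It was 53.2, 51.3, 65.2, 68.4 and 63.7 in treated mice and 46.7, 24.0, 18.3, 40.2 and 40.1 in untreated mice. The groups did not overlap in the 3 Illumina tables after TMM scaling. With Illumina GSNAP the unscaled counts did overlap, at 553 in ILB_9578 and 590 in UNT_9574. The untreated mice were widely spread, with UNT_9575 and UNT_9576 the lowest and a coefficient of variation of 35.7%, the highest of the 10 members. The log2 fold change was 0.83 (SE 0.21, 95% interval 0.39 to 1.28, adjusted p = 0.0041), or 178% of the untreated level. In Ion Torrent GSNAP data Ces2c was 56.3, 49.3, 68.1, 66.0 and 78.8 in treated and 52.6, 27.6, 23.2, 47.5 and 46.1 in untreated mice. There, and in the other Ion Torrent tables, the groups overlapped through untreated mouse UNT_9574 and treated mouse ILB_9578. The log2 fold change in that table was 0.69 (SE 0.20, 95% interval 0.26 to 1.12, adjusted p = 0.011), and over the 6 tables it ran from 0.69 to 0.91.

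The other Ces2 members were not called in most tables. Ces2a, a diglyceride hydrolase, was 528, 409, 528, 582 and 534 in treated and 538, 539, 628, 777 and 715 in untreated mice. The groups overlapped through treated mouse ILB_9582. Its log2 fold change was -0.31 (SE 0.13, 95% interval -0.58 to -0.03, adjusted p = 0.061), and it passed only with Illumina STAR + Bowtie2 (-0.32, adjusted p = 0.047). Ces2e, a hydrolase of pyrethroid insecticides, was 153, 123, 200.0, 197 and 133 in treated and 170.0, 193, 193, 207 and 283 in untreated mice. The groups overlapped through treated mice ILB_9579 and ILB_9582. Its log2 fold change was -0.37 (SE 0.16, 95% interval -0.72 to -0.03, adjusted p = 0.069), and it passed only with Ion Torrent GSNAP (-0.34, adjusted p = 0.047). These calls also rest on the scaling and on single mice. With library totals in place of TMM, Ces2a and Ces2e were lower in all 6 tables, with adjusted p between 0.0060 and 0.016 in the 5 tables where each call was new. Scaling by totals moved the median log2 fold change over genes averaging 10 or more reads to between -0.13 and -0.09, from between -0.01 and 0.01 with TMM. The Ces2a call was lost without treated mouse ILB_9577, ILB_9578, ILB_9579 or ILB_9583 or untreated mouse UNT_9576, UNT_9580 or UNT_9584 (adjusted p 0.073 to 0.13). That of Ces2e was lost without treated mouse ILB_9577, ILB_9578 or ILB_9583 or untreated mouse UNT_9575, UNT_9576, UNT_9580 or UNT_9584 (adjusted p 0.051 to 0.14). Leaving out a mouse also gave new calls. For Ces2a these came without UNT_9574 (5 tables), UNT_9575 (3) and ILB_9582 (2), with adjusted p 0.029 to 0.048. For Ces2e they came without ILB_9579 (5 tables), ILB_9582 (4) and UNT_9574 (4), with adjusted p 0.024 to 0.045.

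**Figure D3:**
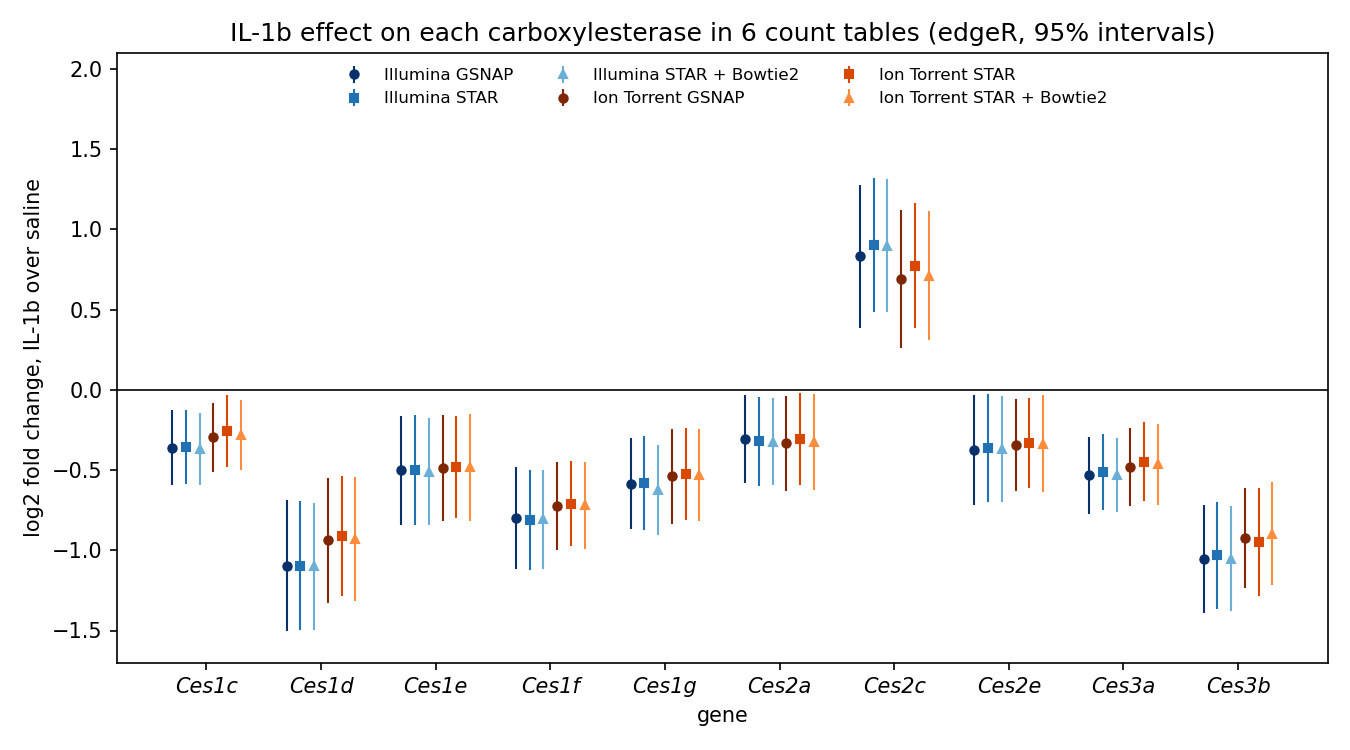
Points show the log2 fold change of IL-1β over saline for each carboxylesterase in 6 count tables (blue shades, Illumina; orange shades, Ion Torrent; circle GSNAP, square STAR, triangle STAR + Bowtie2), with 95% intervals from edgeR. Ces1d and Ces3b lie near -1, Ces1c, Ces2a and Ces2e closest to 0, and Ces2c alone lies above 0.

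Ratios within a library compare close copies without any scaling between libraries. For the most similar pair of members in each subfamily by coding sequence, the log2 count ratio is given as a description with no test, since these ratios were taken up after the values were seen. The log2 ratio of Ces3b to Ces3a in Illumina GSNAP data was -2.42 ± 0.14 in treated and -1.91 ± 0.27 in untreated mice, a difference of -0.51. The groups did not overlap in any of the 6 tables, and the difference was -0.51 to -0.41. Ces3b was thus lower relative to Ces3a in every treated library than in any untreated library of the same table.

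The log2 ratio of Ces2e to Ces2c was 1.40 ± 0.23 in treated and 2.69 ± 0.59 in untreated mice, a difference of -1.29. It also did not overlap between groups in any table, with differences of -1.33 to -1.08. The log2 ratio of Ces1g to Ces1d was -1.67 ± 0.27 in treated and -2.21 ± 0.26 in untreated mice, a difference of 0.54. The mean of this ratio was higher in treated mice in all 6 tables, by 0.42 to 0.55, but the groups overlapped in each.

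**Figure D4:**
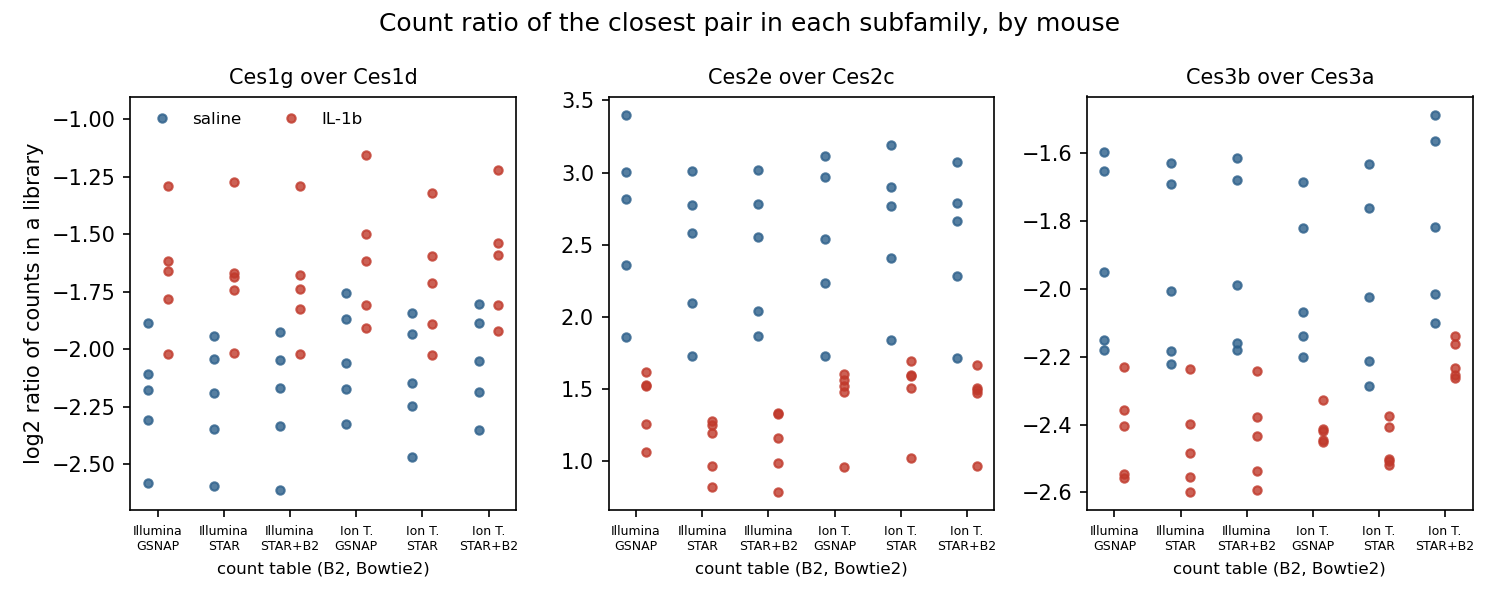
Each point is the log2 ratio of counts of 2 close copies in 1 library, for untreated (blue) and treated (red) mice in the 6 tables. The colors are fully apart for Ces2e over Ces2c and for Ces3b over Ces3a, and overlap for Ces1g over Ces1d.

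The platform comparison asked whether the IL-1β effect on a member differed between Illumina and Ion Torrent, in an edgeR model of the 20 libraries of each aligner that blocked on the mouse. No member passed an adjusted p of 0.05 with any aligner. Of 15578 genes, 10 passed in the GSNAP data (0.0642%), 1 in the STAR data (0.00642%) and 12 when Bowtie2 was added (0.0770%), and DESeq2 and limma-voom also called 0 members. At an unadjusted p under 0.05 there were 0 members with GSNAP, 1 with STAR (Ces1d) and 3 with STAR + Bowtie2 (Ces1d, Ces2c and Ces3b), against 7.81, 7.0 and 7.77% of all genes. The terms were small, from -0.21 to 0.20 over members and aligners. Those of 8, 9 and 8 of the 10 members were above 0, that is, less negative in Ion Torrent. Ces2c had a term below 0 with each aligner. The share of all genes with a term above 0 was not counted, so this is not a trait of the family. Without UNT_9584, the GSNAP log2 fold change of Ces1e was -0.38 in Illumina and -0.43 in Ion Torrent data. That of Ces2e was then -0.24 and -0.25. Ces1d (-1.06 and -0.94) and Ces3b (-1.11 and -0.97) stayed less negative in Ion Torrent data. For Ces1d the log2 fold change with STAR was -1.10 in Illumina and -0.91 in Ion Torrent data, a term of 0.20 (SE 0.07, 95% interval 0.05 to 0.34, unadjusted p = 0.011, adjusted p = 0.67). For Ces2c with STAR + Bowtie2 the values were 0.90 and 0.71, and the term was -0.21 (95% interval -0.41 to -0.02, adjusted p = 0.63).

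Levels in separately normalized tables were set side by side without a test. Relative to Illumina, the Ion Torrent level of the same mouse with GSNAP averaged 85.7 ± 6.31% for Ces1c (SD, n = 10 mice) and 84.9 ± 7.14% for Ces1d, lower in 10 of 10 mice for both. Ces2c averaged 111 ± 10.5% and Ces2e 106 ± 6.19%. With STAR, Ces1c averaged 99.8 ± 8.26% and Ces2e 114 ± 6.47%, so where a member stood relative to Illumina differed between aligners.

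Aligners were compared on one platform by the ratio of a gene's counts in the same library, and the ratio was tested for a difference between treated and untreated mice with limma. From GSNAP to STAR the test called 8 of 11847 genes in Illumina (0.0675%) and 24 of 11797 in Ion Torrent data (0.203%), and from STAR to STAR + Bowtie2 17 of 11923 (0.143%) and 18 of 11804 (0.152%). It called 0 members in each of the 4 comparisons. At an unadjusted p under 0.05 there were 1 (Ces3a), 1 (Ces1c), 4 (Ces1c, Ces1d, Ces1f and Ces2a) and 1 (Ces3b), in the same order, against 5.39, 4.92, 7.82 and 6.40% of all genes tested. The smallest adjusted p was that of Ces3b from STAR to STAR + Bowtie2 in Ion Torrent data, where counts became 147 ± 3.05% of the STAR counts in treated and 139 ± 2.56% in untreated mice (log2 difference 0.07, adjusted p = 0.072). Without treated mouse ILB_9583 that comparison had 1 member called.

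Counts of a member also differed between aligners in both groups, and so did the library totals. In Illumina data totals with STAR were 94.2 to 94.4% of those with GSNAP, while Ces2c had 121 ± 1.64% of its GSNAP counts in treated and 117 ± 5.13% in untreated mice. Ces1d, which shares no stretch of 100 bases with its relatives, had 97.4 ± 1.37 and 97.7 ± 0.721%. In Ion Torrent data totals with STAR were 84.1 to 84.2% of those with GSNAP, and Ces2c, at 91.6 ± 5.36 and 88.7 ± 6.61%, did not stand out from members without a shared stretch, such as Ces1d at 93.4 ± 1.49 and 91.9 ± 1.21% and Ces1e at 86.8 ± 1.998 and 87.4 ± 1.64%. Adding Bowtie2 brought Ion Torrent totals to between 129.2 and 129.9% of the STAR totals. Ces3a, at 123 ± 1.30 and 122 ± 0.780% of its STAR counts, moved about as Ces1d did, at 122 ± 1.10 and 123 ± 0.938%, and Ces3b, with the 147 and 139% given above, moved more than either.

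Reads of Ces2d-ps, the near-identical neighbor of Ces2c, depended on the aligner far more. Illumina GSNAP gave it 27, 36, 46, 35 and 36 reads in treated and 25, 30, 13, 28 and 36 in untreated libraries. Illumina STAR gave it 2 reads in all treated and 26 in all untreated libraries, and Illumina STAR + Bowtie2 gave 25 and 75. Ion Torrent GSNAP gave 761 reads over the treated and 523 over the untreated libraries, Ion Torrent STAR 2 and 12, and Ion Torrent STAR + Bowtie2 606 and 424. The direction turned between tables. Ces2d-ps was called lower with Illumina STAR (log2 fold change -3.19, adjusted p = 0.0021) and Illumina STAR + Bowtie2 (-1.42, adjusted p = 0.0075), and higher with Ion Torrent GSNAP (0.69, adjusted p = 0.025) and Ion Torrent STAR + Bowtie2 (0.65, adjusted p = 0.015). The counts of Ces2c and Ces2d-ps were also summed, which does not recover reads that an aligner or counter left out. In Illumina GSNAP data the sum was 63.7 ± 8.02 CPM in treated and 36.1 ± 12.5 in untreated mice, with no overlap, and with Illumina STAR it was 77.8 ± 10.4 and 42.0 ± 14.0, so the sum itself differed between aligners. In Ion Torrent GSNAP data it was 74.6 ± 13.6 and 46.2 ± 15.5, with overlap. The sum of Ces2c, Ces2d-ps and Ces2b behaved likewise, at 71.3 ± 8.36 and 39.8 ± 16.4 in Illumina GSNAP data.

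**Figure D5:**
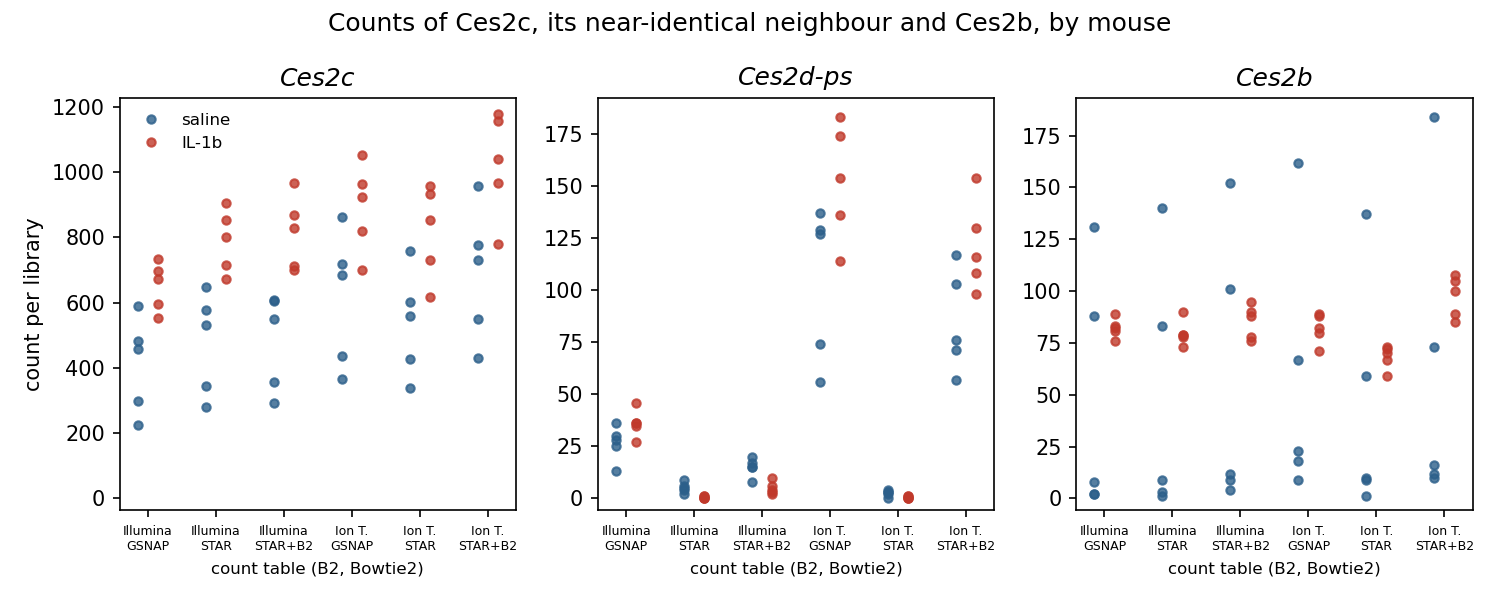
Points are deposited counts per library of Ces2c, Ces2d-ps and Ces2b in the 6 tables, for untreated (blue) and treated (red) mice. Ces2c has the higher group mean in treated mice in every table, with overlapping points in Illumina GSNAP and in all Ion Torrent tables, Ces2d-ps is near 0 with STAR on both platforms and above 50 reads with Ion Torrent GSNAP and STAR + Bowtie2, and Ces2b splits the untreated mice into 2 high and 3 low libraries in every table.

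The same summing was applied to the other close pairs. Ces3a and Ces3b together were 1837 ± 212 CPM in treated and 2842 ± 301 in untreated mice in Illumina GSNAP data, apart in all 6 tables. Ces1b and Ces1c together were 2499 ± 156 and 3204 ± 381, apart in 5 tables and overlapping in Ion Torrent STAR + Bowtie2. The counts of Ces1b in Ion Torrent data with STAR were 52.0 ± 2.16% of those with GSNAP in treated and 51.0 ± 4.04% in untreated mice, while those of Ces1c were 104 ± 1.44 and 102 ± 2.07%.

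Of the 11 other rows with a carboxylesterase symbol, 9 were detected in some table and both rows of Ces5a were not. In Illumina GSNAP data 2 of the 9 were lower in treated mice and 0 higher, with a median log2 fold change of -0.33. Of all genes in that table, 23.9% were lower and 23.7% higher. The median was the value of Ces1a, which had only 14 reads over the treated and 20 over the untreated libraries. Ces2g was 29.2 ± 3.64 CPM in treated and 49.5 ± 4.70 in untreated mice (log2 fold change -0.76, SE 0.11, adjusted p = 4.7e-05), and the groups did not overlap. Ces4a was 2.09 ± 0.687 and 5.67 ± 2.87 (log2 fold change -1.45, SE 0.34, adjusted p = 0.0029), with untreated libraries running from 25 to 127 reads against 13 to 31 in treated libraries. Both were lower in all 6 tables. From table to table, between 2 and 5 of the 9 were called lower and 0 or 1 higher, the latter being Ces2d-ps. Over all genes the shares ran from 21.8 to 24.4% lower and from 20.3 to 23.7% higher. Ces1b, the nearest copy of Ces1c, had a log2 fold change of -0.32 (SE 0.13, adjusted p = 0.057). Ces2b was 76, 83, 89, 81 and 82 reads in treated and 131, 2, 2, 88 and 8 in untreated libraries. Its untreated mice fell into 2 with 88 or more reads and 3 with 8 or fewer, and no difference between groups was called (log2 fold change 1.01, SE 0.68, adjusted p = 0.24). Mice UNT_9575 and UNT_9576, at 2 reads of Ces2b, were also the untreated mice lowest in Ces2c. This did not hold for UNT_9584, with 8 reads of Ces2b. Its Ces2c level was 40.1 CPM, against 40.2 in UNT_9580, which had 88 reads of Ces2b. Ces1a, Ces1h, Ces2f and Ces2h had at most 6 reads in any library of that table.

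The surrounding pathways were followed in lists of genes, with the members left out. Unless stated otherwise, counts in the lists are from Illumina GSNAP data, where 23.9% of all genes were called lower and 23.7% higher. Among genes listed as neutral lipid hydrolases, 7 of 11 detected genes were lower in treated mice, 0 were higher and 4 were not called, with a median log2 fold change of -0.59. Abhd6, a monoglyceride hydrolase, was 16.3 ± 1.85 against 50.6 ± 7.04 CPM (log2 fold change -1.64, adjusted p = 8.5e-08). Lipe, hormone-sensitive lipase, fell by 1.11, and Lipa, lysosomal acid lipase, fell by 1.06 on the log2 scale. Pnpla3, a lipid droplet protein, was 0.555 ± 0.182 against 2.16 ± 2.52 (log2 fold change -1.94, adjusted p = 0.020) and was not called in Ion Torrent GSNAP data. Pnpla2, the adipose triglyceride lipase, had a log2 fold change of 0.15 and an adjusted p of 0.56.

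Genes of triglyceride synthesis and VLDL assembly went both ways, with 4 of 11 lower, 3 higher and 4 not called, and a median of 0.27. Of all genes, 23.9% were lower and 23.7% higher. Mttp, the transfer protein that loads lipid onto apolipoprotein B, was 205 ± 24.4 against 443 ± 52.7 (log2 fold change -1.11, adjusted p = 1.8e-06). Sar1b, a coat protein of the vesicles that leave the endoplasmic reticulum, fell by 0.96 on the log2 scale, and Tm6sf2, which acts in lipoprotein lipidation, fell by 0.71. Cidec, a lipid droplet protein, was 11.1 ± 3.80 against 2.35 ± 1.14 (log2 fold change 2.24, adjusted p = 3.5e-05).

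Other hydrolases of foreign compounds fell together in Illumina GSNAP data, where 9 of 9 were lower with a median of -0.50. In Ion Torrent data 8 of 9 were lower with each aligner, where 21.8 to 24.0% of all genes were. Cmbl, carboxymethylenebutenolidase, was 69.2 ± 12.6 against 138.6 ± 22.5 (log2 fold change -1.003, adjusted p = 2.8e-05). Bche, butyrylcholinesterase, fell by 0.94, Ephx2, soluble epoxide hydrolase, fell by 0.81, and Esd, esterase D, fell by 0.51 on the log2 scale.

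Of 17 transcriptional regulators of liver and xenobiotic genes, 6 were lower, 5 higher and 6 not called, with a median of 0.05 that was -0.12 in Ion Torrent GSNAP data. The shares over all genes in Illumina GSNAP data were 23.9% lower and 23.7% higher. Nr1i3, the constitutive androstane receptor that controls drug-metabolizing genes, was 25.7 ± 6.24 against 472 ± 122 CPM (log2 fold change -4.19, adjusted p = 4.3e-09). Cebpb, an inflammation-responsive factor, rose by 1.34, Hnf4a, a central hepatocyte factor, by 1.04, and Nr1h2, an oxysterol receptor, by 1.003 on the log2 scale. Nothing was measured here on binding of these factors to the carboxylesterase genes.

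Totals ran from 10568530 to 12008799 counts per library in the Illumina tables and from 12199528 to 16439683 in the Ion Torrent tables. The checks that follow are from Illumina GSNAP data, where 23.9% of all genes were called lower and 23.7% higher. All 9 acute phase genes used to check the treatment labels were higher in treated mice, led by Lcn2 (log2 fold change 9.79), Saa3 (9.50), Saa2 (8.65) and Saa1 (6.95). Hepatocyte markers summed to between 69362 and 82911 CPM in treated and between 94963 and 115033 in untreated libraries, with 4 of 8 lower and 2 higher, a median of -0.36. All 8 were detected in these liver samples. Neutrophil markers (5 of 8 detected, 5 higher) summed to 45.0 to 97.5 in treated and 1.004 to 2.38 in untreated libraries. Kupffer cell markers summed to 74.8 to 174 against 137 to 236 (4 of 8 lower, 1 higher), endothelial markers to 91.2 to 150.1 against 117 to 176 (2 of 6 lower, 2 higher), and stellate cell markers to 158 to 249 against 232 to 294 (2 of 5 lower, 0 higher). Cholangiocyte markers summed to 9.78 to 15.4 against 4.30 to 6.11. Of these, Epcam and Sox9 were higher (2 of 4), and Krt19 and Krt7 were not called. Adipocyte markers (1 of 2 detected higher, with Lep and Plin1 at 0) summed to 14.6 to 23.4 against 4.99 to 8.75. The higher one was Fabp4, at 16.1 ± 4.58 against 5.53 ± 1.03, and Cfd was not called. Lymphocyte markers (3 of 3 detected lower) summed to 0.665 to 1.31 against 1.59 to 3.48. Exocrine pancreas markers (0 of 2 detected called) summed to 0.0928 to 0.380 against 0.162 to 0.418, with Cpa1, Pnliprp1 and Prss2 at 0, and reached 1.85 in Ion Torrent GSNAP data, where only Cpa1 and Prss2 were at 0. The part of these differences in the members' changes was not tested.

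Untreated mouse UNT_9584 stood apart, because its deviations from the untreated mean on the 2 platforms correlated at 0.20 to 0.25 across genes, against 0.59 to 0.75 for the other 9 mice. Without it, the lower members numbered 7, 6 and 7 for Illumina and 6, 6 and 5 for Ion Torrent, in the order GSNAP, STAR and STAR + Bowtie2, and Ces2c was higher in all 6. Of all genes, 23.3, 22.4, 23.8, 22.0, 20.0 and 22.0% were then called lower and 23.5, 22.6, 22.9, 21.0, 18.8 and 21.1% higher, in the same order. In Illumina GSNAP data the log2 fold change of Ces1c moved from -0.36 to -0.30 (adjusted p = 0.023) and that of Ces1e from -0.50 to -0.38 (adjusted p = 0.048). Ces1d, Ces1f, Ces1g, Ces3a and Ces3b remained lower in all 6 tables without this mouse.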

How the data were processed

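Liver RNA of 10 mice (5 treated, 5 untreated) was sequenced on 2 platforms. The authors aligned reads to mm9 with GSNAP, STAR 2.5.1b or STAR followed by Bowtie2 2.2.9, and deposited whole-number counts per Ensembl gene in 6 tables. Ribosomal and mitochondrial reads had been discarded with PORT, which also down-sampled libraries to a like depth table by table, so each table was analysed by itself. Whether a count is a read or a read pair is not given in the sources used here, and counts are called reads. How reads that fit several paralogs were counted also bears on these genes.

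The 15578 genes that reached 5 reads in 5 or more samples of some table were tested with edgeR 4.0.16 (TMM, quasi-likelihood, Benjamini-Hochberg adjustment, threshold 0.05). The platform-by-treatment term used the mouse as a block, since each mouse gave the RNA of both libraries. Same-mouse deviations correlated at 0.20 or more on 2 platforms. Aligner ratios, with a pseudocount of 1 and a mean count of at least 10 in both tables, were tested with limma 3.58.1. Alternatives were DESeq2 1.42.0, limma-voom, a rank test on counts without TMM scaling, and other scaling, filters and thresholds. Further alternatives were no block, a pseudocount of 5 and leaving out each mouse. R 4.3.3, Python 3.11.15, scipy 1.17.1 and Biopython 1.88 were used. The fits were tested on simulated data.

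Members and gene lists were chosen with earlier results of these data known. Genes named from a list are, besides all 10 members, the called genes with the 4 largest absolute log2 fold changes in Illumina GSNAP data. Pnpla2, Ces1b, Ces2b, Ces2d-ps and the cholangiocyte and adipocyte markers were named after their values were seen. Lists covered other carboxylesterases, neutral lipid hydrolases, triglyceride synthesis and VLDL assembly, other xenobiotic hydrolases, transcriptional regulators, acute phase genes and markers of 9 cell types. Gene positions, exons and transcripts are those of GENCODE on NCBIM37 (mm9), in which 37310 of the 37681 identifiers were found. Gene levels use the union of annotated exons as length.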

Additional observations from a re-analysis of the deposited data

Results flagged for a closer look

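Among 130 groups of 5 mice checked for a sample far from the others, by the gap to the nearest sample over the range of the group, 4 passed the 95% limit of 0.71. Chance alone gives about 1 in 20, so 4 of 130 is no more than chance would give. The groups are not independent, since the tables share mice, and the Ces3a values below come from the same library. Ces3a in treated mouse ILB_9578 was low in the 3 Illumina tables, at 1256 CPM with GSNAP (other treated mice 1587 to 1691), 1429 with STAR (1803 to 1907) and 1355 with STAR + Bowtie2 (1664 to 1771). Ces3b in untreated mouse UNT_9580 was high in Ion Torrent GSNAP data, at 737 CPM against 454 to 515 in the other untreated mice.

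The fitted difference in Ces2d-ps counts between treated and untreated mice differed between platforms with STAR + Bowtie2. The term was 2.06 on the log2 scale (SE 0.34, adjusted p = 0.010 in edgeR with the mouse block). Its counts over the libraries were 25 in treated and 75 in untreated mice in Illumina data, and 606 and 424 in Ion Torrent data. Single Illumina libraries held 2 to 20 reads. Of the 100-base stretches of Ces2d-ps, 60.8% were shared, mainly with Ces2c, and its direction turned between tables as given above. The part of read placement in this term was not tested.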

How the results depend on the processing

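Over 1020 refits of single members under other settings, 926 kept their direction and side of the threshold, 44 lost a call, 50 gained a call and 0 turned direction. Ces1d, Ces1f, Ces1g, Ces3a and Ces3b were called in all 108 fits each, Ces2c in 106, Ces1e in 98, Ces1c in 82, and Ces2a and Ces2e in 31 each. With an absolute log2 fold change above 1 also required, 2 members were lower in each Illumina table and 0 in each Ion Torrent table, and 0 were higher. Of the 15578 genes, those called in either direction then numbered 2681, 2634 and 2700 for Illumina and 2692, 2549 and 2675 for Ion Torrent, in the order GSNAP, STAR, STAR + Bowtie2. The rank test was run on counts without TMM scaling, so it differs from the main fit in scaling as well as in the test. It called 0 members higher in the Ion Torrent GSNAP and STAR tables, where the adjusted p of Ces2c lay between 0.077 and 0.11. The rank test also lost the call of Ces1e in 4 tables (adjusted p 0.071 to 0.077). It gained calls of Ces1c in 1 table, Ces2a in 5 and Ces2e in 4.

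Leaving out each mouse gave 7 to 9, 6 to 9 and 7 to 9 lower members for Illumina and 6 to 9, 5 to 9 and 5 to 9 for Ion Torrent. Of the 15578 genes, 6900 to 7290, 6577 to 7019 and 6869 to 7267 were then called in either direction for Illumina. For Ion Torrent these were 6655 to 7053, 6023 to 6410 and 6685 to 7074. For the platform-by-treatment term, the genes called ranged over 9 to 23 (GSNAP), 1 to 10 (STAR) and 10 to 17 (STAR + Bowtie2). Without the replicate block the fit called 3, 0 and 6 genes, and it changed no member's call. With STAR, limma-voom called 0 and DESeq2 3 genes. For the aligner ratios, leaving out each mouse gave 3 to 7 and 11 to 21 genes in Illumina data and 16 to 24 and 13 to 19 in Ion Torrent data, with 0 to 1 members in the last comparison. With the longest transcript as gene length the summed level of the members was 3098 in treated and 4472 in untreated mice. Ces1f then stood above Ces3b in both groups (181 against 121 in treated mice, 316 against 252 in untreated mice). In these alternatives 5 mice per group limit the precision, and the cause of each change was not tested.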
